A study of Mus musculus with 2 samples.

Results

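CD8 T cells of 4T1 tumours were chosen by their measured UMIs (unique transcript molecules), as the cells with at least 2 UMIs of the CD3 and T cell receptor genes Cd3d, Cd3e, Cd3g, Trac, Trbc1 and Trbc2, at least 1 UMI of Cd8a or Cd8b1, and 0 of Cd4. Cells with more than 1 UMI of Krt8 and Krt18, more than 2 of Col1a1 and Col3a1, or 100 or more of S100a8 and S100a9 per 10000 were left out. The rule kept 364 of the 28854 cells that passed the filters on gene number and mitochondrial share, 30 of 8853 in the AptCD4-LNT library and 334 of 20001 in the Untreated library. The labels call the sequenced material tumor cells, while these cells were recognised by their RNA alone. The study's title gives the activation of CD4 T cells as the aim of AptCD4-LNT. The tumours were grown from 4T1, a triple-negative mouse breast cancer line, in BALB/c mice, an inbred strain with its own immune system, and were read by droplet single-cell RNA sequencing. AptCD4-LNT mice were given AptCD4-LNT in 3 doses, 1 every 3 days, of 5, 4 and 3 in units of 1e6 cells, and Untreated mice were given PBS in its place. Tumours were taken at 9 days, and 3 tumours were mixed into 1 library for each treatment. With 1 library per treatment no difference between AptCD4-LNT and Untreated could be tested, and no statement below concerns variation between mice. All intervals are 95% intervals and cover counting error only.

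CD8 T cells recognise peptides on MHC class I and kill through granules that hold perforin, which forms pores in the target membrane, and granzymes, which are proteases. In mice the genes Gzmb to Gzmg lie in 1 cluster on chromosome 14, and Gzmc to Gzmg are known from strongly stimulated killer cells in culture. CD8 T cells in tumours range from stem-like or memory cells, marked by the transcription factor Tcf7, to cells with inhibitory receptors such as Havcr2 (TIM-3) and Pdcd1 (PD-1), a state known as exhaustion.

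Gzmc to Gzmg were found together in single cells and apart from Ccl5, as described below, so the 250 bases before the start of each are shown first, with those of Gzmb for comparison. The sequences are those of RefSeq on GRCm38.p6, all on the minus strand and written 5′ to 3′ in the direction of the gene. Capitals mark the core motif of RUNX factors, ACCACA or its reverse complement TGTGGT, and the cyclic AMP response element (CRE) TGACGTCA, a palindrome, with at most 1 mismatch. The windows are chr14:56262335-56262584 for Gzmb, chr14:56234658-56234907 for Gzmc, chr14:56132594-56132843 for Gzmd, chr14:56120626-56120875 for Gzme, chr14:56211408-56211657 for Gzmf and chr14:56159580-56159829 for Gzmg.
Gzmb: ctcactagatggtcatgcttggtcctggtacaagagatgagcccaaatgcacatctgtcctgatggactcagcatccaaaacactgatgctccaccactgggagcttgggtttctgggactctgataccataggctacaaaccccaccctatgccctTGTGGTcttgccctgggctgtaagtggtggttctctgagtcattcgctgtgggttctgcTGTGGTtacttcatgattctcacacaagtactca
Gzmc: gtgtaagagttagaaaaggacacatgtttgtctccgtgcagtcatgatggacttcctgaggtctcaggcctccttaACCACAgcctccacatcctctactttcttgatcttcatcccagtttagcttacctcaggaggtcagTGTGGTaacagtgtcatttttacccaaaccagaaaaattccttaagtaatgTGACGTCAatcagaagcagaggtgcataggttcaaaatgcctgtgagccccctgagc
Gzmd: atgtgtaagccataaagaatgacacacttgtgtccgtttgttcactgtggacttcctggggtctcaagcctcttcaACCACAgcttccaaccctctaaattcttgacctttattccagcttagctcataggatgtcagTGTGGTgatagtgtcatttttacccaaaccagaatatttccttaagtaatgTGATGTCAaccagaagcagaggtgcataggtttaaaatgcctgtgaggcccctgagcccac
Gzme: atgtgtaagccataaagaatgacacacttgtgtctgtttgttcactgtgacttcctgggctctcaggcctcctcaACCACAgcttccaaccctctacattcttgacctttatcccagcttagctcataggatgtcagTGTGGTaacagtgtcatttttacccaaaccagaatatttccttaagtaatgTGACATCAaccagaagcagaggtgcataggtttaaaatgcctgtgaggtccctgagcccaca
Gzmf: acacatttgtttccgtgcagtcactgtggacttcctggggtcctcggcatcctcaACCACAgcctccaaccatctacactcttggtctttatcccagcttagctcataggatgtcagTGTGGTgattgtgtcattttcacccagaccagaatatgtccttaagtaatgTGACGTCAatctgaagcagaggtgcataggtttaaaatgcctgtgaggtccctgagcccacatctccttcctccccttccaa
Gzmg: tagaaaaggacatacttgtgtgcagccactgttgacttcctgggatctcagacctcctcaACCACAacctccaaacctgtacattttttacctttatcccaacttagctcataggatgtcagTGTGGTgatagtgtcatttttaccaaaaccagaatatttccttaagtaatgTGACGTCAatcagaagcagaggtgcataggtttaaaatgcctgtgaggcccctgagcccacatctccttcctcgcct
Gzmc to Gzmg share 1 layout in these windows, the RUNX core once on each strand and, nearer to the start, a CRE whose first base lies 57, 61, 62, 82 and 77 bases before the start of Gzmc, Gzmd, Gzme, Gzmf and Gzmg. The CRE is exact in Gzmc, Gzmf and Gzmg, and reads TGATGTCA in Gzmd and TGACATCA in Gzme. The Gzmb window holds TGTGGT 2 times and no CRE, exact or with 1 mismatch. Among 32851 promoter windows of the same length, 14% hold the RUNX core, 1.55% the exact CRE and 10.6% a CRE with at most 1 mismatch. The windows of Gzmd to Gzmg are 74.5 to 94.8% identical to each other, those of Gzmc and these genes 70.2 to 80.9%, and those of Gzmb and the others 44.1 to 47.5%, so motifs shared within the group are not independent of each other. The match of letters is a description and says nothing of binding. The transcripts of Gzmd to Gzmg are 83.1 to 90% identical. Of all their 90-base stretches at most 2.17% (19 of 875 in Gzmd) recur in another of the 6 genes, and none in Gzmb, Gzmc or Gzmf. Over whole transcripts, exact stretches of that length can thus mostly be told apart. Which part of each transcript the reads cover was not examined, and how many counts of Gzmd, Gzme and Gzmg are uncertain was not measured.

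The AptCD4-LNT CD8 T cells were sequenced more deeply, with a median of 4837 UMIs and 2118 genes per cell (1192 to 16540 UMIs), against 2255 UMIs and 1171 genes in Untreated CD8 T cells (506 to 16827 UMIs). Summed over cells, 169325 UMIs stood behind the AptCD4-LNT values and 1031257 behind the Untreated values. Of all barcodes, 42 occurred in both libraries, and none of them was a CD8 T cell. Without the limits on keratin, collagen, S100 genes and Cd4 the rule would have kept 33 AptCD4-LNT and 438 Untreated cells, and most of the Untreated losses, 84 cells, were due to keratin. Of the 5 CD8 T cell markers Cd8a, Cd8b1, Cd3e, Trac and Gzmb, all but Gzmb were part of the rule. Together they had at least 5 UMIs in 29 of 30 AptCD4-LNT and 265 of 334 Untreated cells, and Gzmb was in 22 AptCD4-LNT and 235 Untreated cells. Foxp3 and Cd40lg, genes of regulatory and helper T cells, and the B cell genes Cd79a, Ms4a1 and Jchain were at 0 in both. Ikzf4, listed beside Foxp3, was not, with 3 UMIs in 3 AptCD4-LNT cells and 33 UMIs in 29 Untreated cells. The whole B cell list of 6 genes had 4 UMIs in each library. A trace of innate lymphocytes cannot be told apart from CD8 T cells, since 3 AptCD4-LNT cells and 0 Untreated cells had a UMI of Trdc, Ncr1 or Klrb1c. The whole list of 6 natural killer and innate lymphocyte genes, Ncr1 and Klrb1c among them, was seen in both libraries. It had 23 UMIs in 10 AptCD4-LNT cells and 110 UMIs in 62 Untreated cells. At the edges of the rule, 5 AptCD4-LNT and 89 Untreated members had a single CD8 UMI, and 60 AptCD4-LNT and 137 Untreated CD3-positive cells had none.

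CD8 T cells took a smaller share of the AptCD4-LNT library. Of all kept AptCD4-LNT cells they made up 0.339% (0.229 to 0.483%), against 1.67% (1.5 to 1.86%) in Untreated tumours, which is 4.93-fold lower (3.39 to 7.42). Among CD3-positive cells alone, 30.3% (21.5 to 40.4%) of 99 AptCD4-LNT cells and 66.7% (62.3 to 70.8%) of 501 Untreated cells were CD8 T cells, 2.20-fold lower (1.51 to 3.31). The ratio was nearer to 1 for the other CD3-positive cells, but depended on innate-marked ones. CD3-positive cells with neither coreceptor made up 0.678% of the AptCD4-LNT library, against 0.685% of the Untreated one, a ratio of 0.989 (0.718 to 1.35), and CD4 T cells 0.102% (9 cells) and 0.150% (30 cells), a ratio of 0.678 (0.283 to 1.46). With cells that show a UMI of Trdc, Ncr1 or Klrb1c left out, a choice made after seeing the data, 31 AptCD4-LNT and 131 Untreated cells with neither coreceptor remained, 0.35% and 0.655%, a ratio of 0.535 (0.349 to 0.796). For CD8 T cells the same step left 27 AptCD4-LNT and 334 Untreated cells, a ratio of 0.183 (0.119 to 0.271). Whether a cell shows a CD8 UMI depends on its depth, and the CD3-positive cells with neither coreceptor were shallow, at a median of 2453 AptCD4-LNT and 917 Untreated UMIs. Fewer CD8 T cells and more cells of other kinds cannot be told apart from a share, and the number of cells per tumour was not analysed here.

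**Figure D1:**
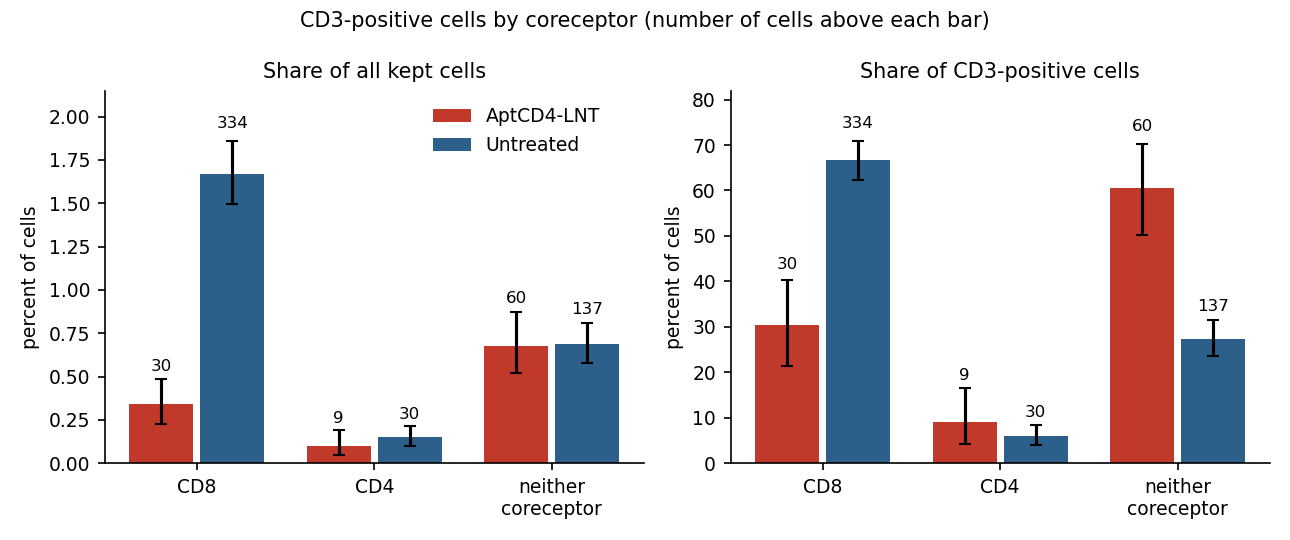
Shares of CD8, CD4 and coreceptor-free CD3-positive cells in percent of all kept cells (left) and of CD3-positive cells (right), AptCD4-LNT red and Untreated blue, with exact 95% binomial intervals and the number of cells above each bar. The CD8 bar is at 0.339% in AptCD4-LNT and 1.67% in Untreated, and the bars of cells with neither coreceptor, innate-marked cells included, are at 0.678% and 0.685% of kept cells.

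Within the CD8 T cells of both libraries, the chemokine gene Ccl5 and the granzyme genes Gzmc to Gzmg were seldom seen in the same cells. Ccl5 encodes an attractant of T cells and monocytes that memory and effector CD8 T cells store. Of the AptCD4-LNT cells, 1 of 10 (10.0%, 0.253 to 44.5%) with a UMI of Gzmc to Gzmg had Ccl5, and 18 of 20 (90%, 68.3 to 98.8%) without had it. Of the Untreated cells, 26 of 112 (23.2%, 15.8 to 32.1%) with a UMI of Gzmc to Gzmg had Ccl5, and 132 of 222 (59.5%, 52.7 to 66.0%) without. The gap was also there at equal depth. With every cell thinned to 1000 UMIs, which leaves out 0 AptCD4-LNT and 49 Untreated cells below that depth, Ccl5 was in 0 of 8 (up to 36.9%) AptCD4-LNT cells with these granzymes and in 15 of 22 (68.2%, 45.1 to 86.1%) without. In Untreated cells it was in 4 of 80 (5.00%, 1.38 to 12.3%) with and in 87 of 205 (42.4%, 35.6 to 49.5%) without. Cells are not replicates, and these values describe 2 libraries. That Gzmc to Gzmg were grouped, and that Ccl5 was set against them, was chosen after their values were seen. Free RNA was gauged in 2000 keratin-high cells of each library, taken to express none of these genes. Thinned to the same depth, Ccl5 was in 0.8% of AptCD4-LNT and 1.60% of Untreated keratin-high cells, and Gzmc to Gzmg in 0.4% and 0.750%. These cells were deeper, at medians of 17796 and 8869 UMIs, against 4837 and 2255 in CD8 T cells. A fixed amount of free RNA per droplet is diluted more by thinning in deeper cells. The shares can thus understate free RNA in CD8 T cells.

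**Figure D2:**
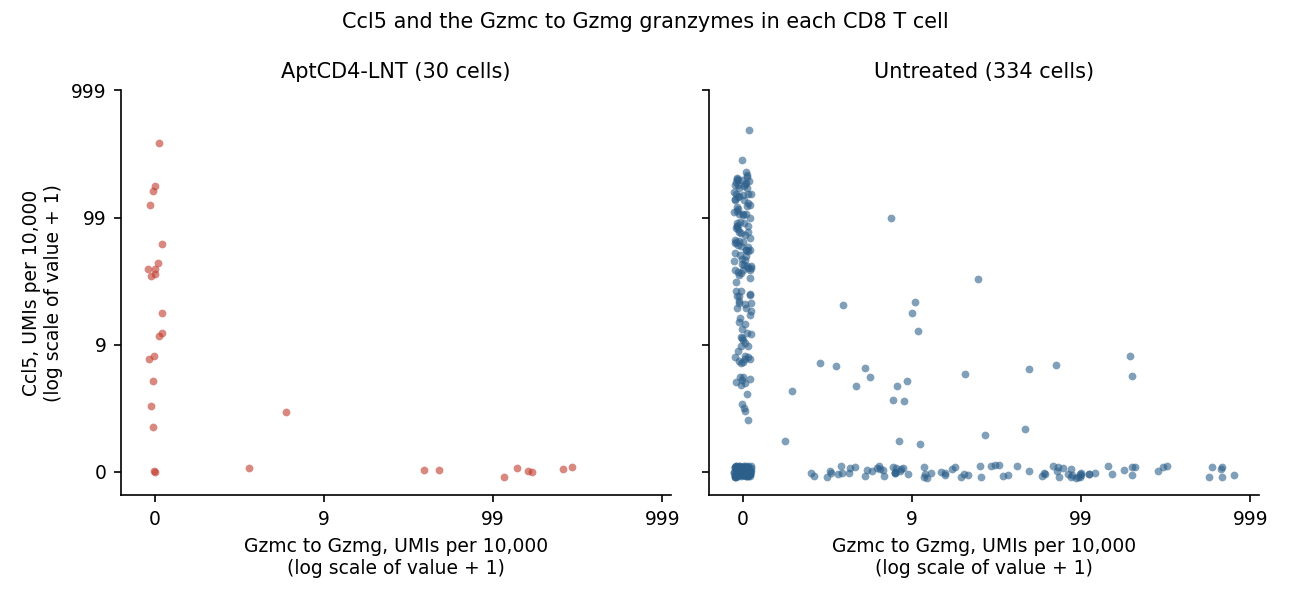
Each point is 1 CD8 T cell, with its summed Gzmc to Gzmg UMIs per 10,000 on the horizontal axis and its Ccl5 UMIs per 10,000 on the vertical axis, both on a log scale of the value plus 1, with a small sideways jitter. Points line up along the axes, since 1 of 10 AptCD4-LNT and 26 of 112 Untreated cells with these granzymes also had Ccl5.

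Gzmb did not part the cells in that way. Gzmb, the granzyme that cuts caspases and other proteins of the target, was in 8 of 15 (53.3%) AptCD4-LNT cells with Ccl5 and in 10 of 15 (66.7%) without, at 1000 UMIs per cell. In Untreated cells it was in 50 of 91 (54.9%, 44.2 to 65.4%) with Ccl5 and in 137 of 194 (70.6%, 63.7 to 76.9%) without. Gzmk, a granzyme of memory-type CD8 T cells, did not go with the Gzmc group. In Untreated cells with Gzmk, 139 in number, Gzmc was in 30.9% and Gzmd in 9.35%, close to the 29.3% and 8.68% over all Untreated CD8 T cells. In AptCD4-LNT cells with Gzmk, 16 in number, Gzmc was in 25% and Gzmd in none, against 33.3% and 13.3% over all AptCD4-LNT CD8 T cells.

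The granzymes of the group came together in single cells. Of the 29 Untreated cells with Gzmd, 79.3% also had Gzme, 69.0% Gzmf, 69.0% Gzmg, 89.7% Gzmc and 100% Gzmb, where 8.08%, 15.6%, 7.19%, 29.3% and 70.4% of all Untreated CD8 T cells had these genes. Of the 24 Untreated cells with Gzmg, 83.3% had each of Gzmd, Gzme and Gzmf. In the AptCD4-LNT library 4 cells had Gzmd, and all 4 had Gzma, Gzmb, Gzmc, Gzme and Prf1. Gzmc reached beyond the others, with 10 AptCD4-LNT and 98 Untreated cells, and 100% and 98.0% of these had Gzmb. As deeper cells show more genes, such shares are higher in deep cells. The median depth of cells with Gzmd to Gzmg was 9474.5 UMIs, against 4482 without, in the AptCD4-LNT library, and 3629, against 2014, in the Untreated library.

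A few cells carried most of the Gzmd to Gzmg RNA. Gzmd to Gzmg together were in 8 of 30 AptCD4-LNT and 63 of 334 Untreated CD8 T cells. The 8 AptCD4-LNT cells held 154, 144, 66.8, 66.1, 37.7, 18.9, 4.05 and 0.605 UMIs of these genes per 10000. In the Untreated library the 10 richest cells held 69.7% of the UMIs, and the highest share that these 4 genes took of a single cell's UMIs was 1.54% in AptCD4-LNT and 8% in Untreated cells. The summed level was 2108 CPM (UMIs per 1e6 UMIs) in AptCD4-LNT and 3109.8 CPM in Untreated CD8 T cells, a log2 ratio of -0.56 (-0.72 to -0.40). It rests on single cells, as 1 cell held 51.0% of the AptCD4-LNT UMIs and 1 cell 14.6% of the Untreated ones. Without the AptCD4-LNT cell the log2 ratio was -1.48, without the Untreated cell -0.35, and without the limits on keratin, collagen and S100 genes it was 0.048, so no direction is given. The share of the 4 genes also differed, with Gzmd 40.1% of their UMIs in AptCD4-LNT and 22.3% in Untreated cells, and Gzmf 30.8% and 40.3%.

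Cells with Gzmd to Gzmg had more of the other granzymes and perforin and less of memory genes, while the remaining killing genes were level. For the states below, genes with a mean of 50 CPM or more over cells with and without the marker were counted, and a gene was called when the 2 levels were at least 1.5-fold apart. In Untreated cells with Gzmd to Gzmg, against those without, 5.81% of 3029 genes were higher and 10.4% lower. Of the other 5 genes in the granzyme and perforin list 4 were higher and 0 lower (median log2 ratio 1.48). Of the killing and granule genes outside that list 2 of 11 were higher and 1 lower (median -0.03). Gzmc was at 4309 CPM in Untreated cells with Gzmd to Gzmg and at 332 CPM in those without, a log2 ratio of 3.70 (3.50 to 3.90), and Gzmb at 8769.9 and 3142 CPM (1.48). Prf1, which encodes perforin, was at 1206 and 303 CPM, a log2 ratio of 1.99 (1.75 to 2.24), and Gzma, a granzyme with trypsin-like activity, at 2382 and 1197 CPM (0.99). Tnfrsf9, the costimulatory receptor 4-1BB that T cells gain on stimulation, was at 872 and 489 CPM (0.84). Il2ra and Il2rb, chains of the interleukin 2 receptor, were at 195 and 79.6 CPM (1.29) and at 909 and 608 CPM (0.58). The glycolysis and hypoxia list had 3 of 13 genes higher and 0 lower (median 0.43), with the glucose transporter gene Slc2a3 at 149 and 89.2 CPM.

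On the other side stood genes of memory cells and interferon response. Of the naive, memory and stem-like genes 0 of 7 were higher and 5 lower in Untreated cells with Gzmd to Gzmg (median -0.84), and of the interferon response genes 0 of 9 higher and 5 lower (median -0.59), beside a median of -0.04 over all genes. Klf2, which keeps T cells in circulation, was at 52.9 CPM with and 259 CPM without, a log2 ratio of -2.29 (-3.13 to -1.56). Bcl2, a survival factor of memory cells, was at 182 and 384 CPM (-1.08). Ccl5 itself was at 132 and 1843 CPM, a log2 ratio of -3.80 (-4.29 to -3.35), and Xcl1, an attractant of cross-presenting dendritic cells, at 9.91 and 217 CPM (-4.45). The interferon-induced gene Ifi27l2a was at 36.3 and 224 CPM (-2.62). Il7r, the receptor for interleukin 7, differed little, at 287 and 329 CPM (-0.20, -0.57 to 0.16).

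The 8 AptCD4-LNT cells with Gzmd to Gzmg, set against the 22 without, gave like directions for most of these genes. Gzmc was at 10821 CPM with and 42.5 CPM without, Prf1 at 425 and 63.8 CPM, and Irf8, a transcription factor of stimulated CD8 T cells, at 690.4 and 63.8 CPM. Ccl5 was at 0 CPM (0 UMIs) with and 3127 CPM (294 UMIs) without, Klf2 at 13.3 and 223 CPM, Bcl2 at 159 and 1085 CPM and Ifi27l2a at 26.6 and 436 CPM. The list medians were 2.73 for granzymes and perforin, -1.90 for naive, memory and stem-like genes and -1.47 for interferon response genes. Of the inhibitory and exhaustion genes 6 of 9 were higher and 0 lower (median 0.68), beside 712 higher and 988 lower of 3273 genes. In Untreated cells with Gzmd to Gzmg 2 of 10 were higher and 0 lower (median 0.17). Gzmb was at 12548 CPM with and 1149 CPM without, but this rests on 1 cell with 49.5% of all AptCD4-LNT Gzmb UMIs, and after thinning its log2 ratio was -0.18. The Gzmc gap was also smaller after thinning, with 42 UMIs in 6 AptCD4-LNT cells with Gzmd to Gzmg and 23 in 24 without. At full depth 1 cell, with 0.605 UMIs of Gzmd to Gzmg per 10000, held 29.2% of the AptCD4-LNT Gzmc UMIs. By the size rule for thinned Untreated cells, Gzmc (log2 ratio 3.79), Tgm2 (3.01), Rpe (2.43), Thbs1 (2.40) and Vsir (2.36) led the higher genes, and Ccl5 (-4.88), Sf1 (-3.32) and Ly6c2 (-3.12) the lower ones. Sf1 and Ly6c2 each had 1 thinned UMI in cells with Gzmd to Gzmg. At full depth most ratios were smaller. Gzmc was at 3.70, Tgm2 and Rpe at 1.21, Thbs1 at 0.66 and Vsir at 1.27. Ccl5 was at -3.80, Sf1 at -0.42 and Ly6c2 at -1.99. Tgm2 and Thbs1 are also macrophage genes, and the part of macrophage RNA in them was not tested.

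Havcr2 cells leaned the same way. Havcr2, the inhibitory receptor TIM-3, was in 9 of 30 AptCD4-LNT and 102 of 334 Untreated cells. In Untreated cells with Havcr2, 4.65% of 3054 genes were higher than in those without and 5.37% lower, and of the granzyme and perforin list 7 of 9 were higher and 1 lower (median 1.26). Gzmc was at 2515 CPM with Havcr2 and 605 CPM without (2.05, 1.88 to 2.23), Gzmb at 6942 and 2902 CPM (1.26), and Gzmg at 1415 and 215 CPM (2.72). The interferon response list had 0 of 9 higher and 6 lower (median -0.75), and naive, memory and stem-like genes 0 of 8 higher and 4 lower (median -0.66). Ccl5 was at 336 CPM with and 2226 CPM without (-2.73), Klf2 at 95.3 and 289.9 CPM (-1.60) and Bcl2 at 205 and 430.2 CPM (-1.07). Other inhibitory genes hardly followed in level in Untreated cells, with 1 of 9 in their list higher and 0 lower (median 0.25). Ctla4 was at 338 and 348 CPM (-0.04) and Pdcd1 at 344 and 289.9 CPM (0.25). Pdcd1 was nevertheless in 67.6% of Untreated cells with Havcr2 and 36.2% without, and at 1000 UMIs per cell in 35.4% (22.2 to 50.5%) and 23.2% (18 to 29.1%). In the AptCD4-LNT library 8 of 9 cells with Havcr2 and 4 of 21 without had Pdcd1. There 4 of 7 inhibitory genes were higher with Havcr2 and 1 lower (median 0.59), beside 695 higher and 930 lower of 3297 genes. C1qa, a complement gene of macrophages, was at 346 CPM with Havcr2 and 34.6 CPM without in Untreated cells, and macrophages express Havcr2 too. The part of macrophage RNA in the Untreated values was not tested. In AptCD4-LNT cells C1qa was at 12.9 CPM with Havcr2 and 207 CPM without, but 1 cell held 128 of the 148 UMIs of the 8 macrophage markers.

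Havcr2 and the Gzmc to Gzmg group overlapped. At full depth 8 of 10 AptCD4-LNT cells with these granzymes (80.0%, 44.4 to 97.5%) had Havcr2, and 1 of 20 (5.00%, 0.127 to 24.9%) without. In Untreated cells it was 60 of 112 (53.6%, 43.9 to 63.0%) with and 42 of 222 (18.9%, 14 to 24.7%) without. Thinned to 1000 UMIs, Havcr2 was in 2 of 8 (25%) AptCD4-LNT cells with and 0 of 22 without, and in 27.5% (18.1 to 38.6%) of Untreated cells with and 12.7% (8.45 to 18%) without.

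Cycling cells, those with at least 2 UMIs of 18 cell division genes such as Mki67 and Top2a, numbered 14 of 30 in AptCD4-LNT and 131 of 334 in Untreated tumours. In Untreated cycling cells, against the rest, 12.9% of 3034 genes were higher and 10.4% lower. All 15 counted genes of DNA replication, which the definition did not use, were higher (median 1.59), among them Mcm5, a subunit of the replicative helicase, at 117 and 36.1 CPM and Pcna, the sliding clamp, at 252 and 132 CPM. Naive, memory and stem-like genes had 0 of 8 higher and 7 lower (median -0.85), and immediate early genes 0 of 12 higher and 7 lower (median -0.86), with Fos at 213 and 561 CPM. Ccl5 was again far lower, at 255 CPM in cycling and 2950.3 CPM in other Untreated cells, a log2 ratio of -3.53 (-3.78 to -3.29). In AptCD4-LNT cells it was at 1102 CPM in cycling and 2648 CPM in other cells (-1.26), and the DNA replication median was 2.27. Granzymes were higher in cycling cells in no steady way. Prf1 was at 562 CPM in cycling and 578 CPM in other Untreated cells (-0.04), Gzma at 1364 and 1812 CPM (-0.41), and Gzmb at 5662 and 3506 CPM (0.69), which after thinning was -0.04. Cycling cells were deeper, at a median of 3953 UMIs, against 1612 in other Untreated cells.

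Cells with Gzmc to Gzmg were more often in cycle at full depth, 6 of 10 with and 8 of 20 without in AptCD4-LNT, and 67.9% (58.4 to 76.4%) with and 24.8% (19.2 to 31.0%) without in Untreated cells. At 1000 UMIs per cell the gap was smaller, 3 of 8 with and 5 of 22 without in AptCD4-LNT, and 42.5% (31.5 to 54.1%) with and 29.3% (23.1 to 36.0%) without in Untreated cells, whose intervals overlap. The level of the cycling core genes was read for cells with Gzmd to Gzmg. Summed, it was 2406 CPM with and 2469 CPM without in Untreated cells, with 0 of 15 genes higher and 0 lower (median -0.05). In AptCD4-LNT cells it was 2430 and 2798 CPM, with 4 of 16 higher and 8 lower (median -0.44).

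Tcf7 cells were few and set apart by what they lacked. Tcf7, the transcription factor TCF-1 of naive, memory and stem-like T cells, was in 5 of 30 AptCD4-LNT and 23 of 334 Untreated cells, on 8 and 25 UMIs. In the 23 Untreated cells, against the other 311, 30.7% of 3190 genes were higher and 21.3% lower, a wide background that comes with few cells. No UMI of Gzmc, Gzmd, Gzme, Gzmf or Gzmg was found in any Tcf7 cell of either library, where 10 of 25 AptCD4-LNT and 112 of 311 Untreated cells without Tcf7 had at least 1. Of the granzyme and perforin list 0 of 9 were higher and 8 lower (median -3.39). Gzmb was at 669 CPM in Untreated cells with Tcf7 and at 4974 CPM without, a log2 ratio of -2.89 (-3.47 to -2.37), and in AptCD4-LNT cells at 160.4 and 7265 CPM. Prf1 was at 23.1 and 592 CPM in Untreated cells (-4.68), and Tnfrsf9 at 69.2 and 625 CPM (-3.17). The inhibitory list had 1 of 7 higher and 5 lower (median -0.92), with Pdcd1 at 69.2 and 326 CPM, and glycolysis and hypoxia genes 2 of 15 higher and 9 lower (median -0.92), with Ldha, lactate dehydrogenase, at 323 and 1046 CPM. Havcr2 was in 0 of 5 AptCD4-LNT and 1 of 23 Untreated cells with Tcf7, and in 9 of 25 and 101 of 311 without. Untreated cells with Tcf7 were shallower, at a median of 1205 UMIs, against 2327 without. At 1000 UMIs per cell Havcr2 was in 0 of 13 (up to 24.7%) Untreated cells with Tcf7 and in 17.6% (13.3 to 22.7%) without, and these intervals overlap.

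Some memory genes and Ccl5 were higher in Untreated Tcf7 cells. Of the naive, memory and stem-like genes 5 of 8 were higher and 2 lower (median 0.79), with Xcl1 on 3 UMIs at 69.2 CPM with and 159.9 CPM without and Cd27, a costimulatory receptor, on 1 UMI at 23.1 and 85.0 CPM. In AptCD4-LNT cells the median was 0.55. Klf2 was at 1107 CPM with and 159 CPM without (2.80), Bcl2 at 876 and 301 CPM (1.54), Il7r at 715 and 299.6 CPM (1.25) and Ccl5 at 5904 and 1141 CPM, a log2 ratio of 2.37 (2.17 to 2.57). Ccl5 was in 5 of 5 AptCD4-LNT cells with Tcf7 and 14 of 25 without, and in 20 of 23 (87.0%, 66.4 to 97.2%) Untreated cells with and 138 of 311 (44.4%, 38.8 to 50.1%) without. The costimulatory receptor Cd28 was at 553 and 226 CPM (1.29) in Untreated cells, the integrin chain Itga4 at 415 and 158 CPM (1.39) and the surface protein Ly6a at 646 and 136 CPM (2.25). Interferon response genes were 9 of 11 higher and 1 lower (median 1.21) in Untreated cells, but the median was -0.17 in the 5 AptCD4-LNT cells. Macrophage and dendritic cell RNA moved with the same cells. Lyz2 was at 4497 CPM in Untreated cells with Tcf7 and 471 CPM without, Apoe at 2444 and 563 CPM, and Cd74 at 2352 and 405 CPM. In AptCD4-LNT cells Apoe was at 2566 and 62.3 CPM, but 1 cell held 128 of the 148 UMIs of the 8 macrophage markers. The part of that RNA in the other values was not tested.

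**Figure D3:**
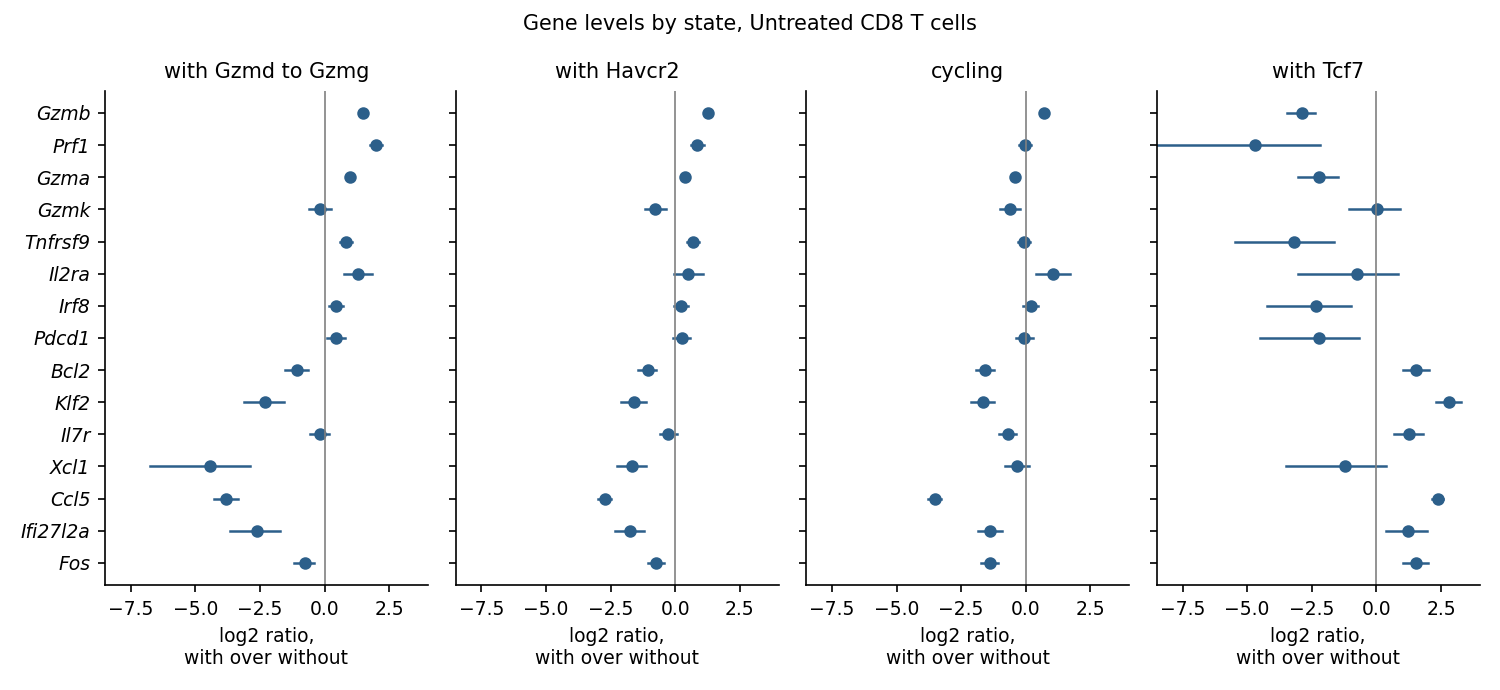
Log2 ratios of summed CPM in Untreated CD8 T cells with the marker over those without, for 15 genes (rows) and 4 states (panels), with 95% counting intervals, the one of Prf1 in Tcf7 cells running beyond the axis. Ccl5 lies left of 0 with Gzmd to Gzmg (-3.80), with Havcr2 (-2.73) and in cycling cells (-3.53), and right of 0 with Tcf7 (2.37).

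Cells with Ccl5, 19 AptCD4-LNT and 158 Untreated, were the counterpart of the Gzmc to Gzmg cells in memory and interferon response genes. The 2 splits are not independent, as 9 of 10 AptCD4-LNT and 86 of 112 Untreated cells with Gzmc to Gzmg lacked Ccl5. Cells with Ccl5 were shallower, at medians of 4601 AptCD4-LNT and 1651 Untreated UMIs, against 7339 and 2965 without. In Untreated cells, 7.61% of 3063 genes were higher with Ccl5 than without and 5.81% lower. Of the naive, memory and stem-like genes 6 of 8 were higher and 0 lower (median 1.0), and of the interferon response genes 5 of 10 higher and 0 lower (median 0.55). Lef1, a partner of TCF-1, was at 87.9 CPM with and 27.4 CPM without (1.68), Klf2 at 337 and 108 CPM (1.64), Bcl2 at 456 and 238 CPM (0.94) and Ccl4, a chemokine that attracts T cells and monocytes, at 522 and 222 CPM (1.23). Gzmk was at 286 CPM with and 189.8 CPM without (0.59). Of the granzyme and perforin list the 5 lower genes were Gzmc to Gzmg, against which Ccl5 had been set, so that their count adds nothing, with Gzmf at 361 and 1841 CPM (-2.35) and Gzmg at 34.2 and 1266 CPM (-5.21). Of the other 4 members Gzmk was the higher one, and Prf1 was at 464 and 637 CPM (-0.46), Gzma at 1218 and 1760 CPM (-0.53) and Gzmb at 4479 and 5000.4 CPM (-0.16). Thinning raised the contrast, with Gzmc on 3 UMIs with Ccl5 and 261 without, and Gzmd on 0 with and 105 without. In AptCD4-LNT cells the median was 1.61 for naive, memory and stem-like genes, with Bcl2 at 1091 CPM with and 309 CPM without and Klf2 at 266 and 11.1 CPM. For cycling core genes no difference between the libraries is read. With Ccl5 9 of 16 were higher and 3 lower (median 0.96) in AptCD4-LNT cells, beside 949 higher and 714 lower of 3295 genes. In Untreated cells 0 of 15 were higher and 8 lower (median -0.59). The AptCD4-LNT cells with Ccl5 include 1 cell of 9681 UMIs with 93.0 cycling core UMIs per 10000 and 1.03 of Ccl5. Ccl5 itself was in 8 of 14 cycling and 11 of 16 other AptCD4-LNT cells at full depth. The macrophage gene Apoe was at 863 CPM with Ccl5 and 55.3 CPM without in AptCD4-LNT cells, and at 305 and 864 CPM in Untreated cells. In the AptCD4-LNT library 1 cell held 128 of the 148 UMIs of the 8 macrophage markers, so its Apoe values can rest on that cell. The part of macrophage RNA in the AptCD4-LNT values was not tested.

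At equal depth the counting interval of every ratio of state shares between the libraries held 1. Of 30 AptCD4-LNT and 285 Untreated cells thinned to 1000 UMIs, 26.7% and 28.1% had Gzmc to Gzmg, a ratio of 0.95 (0.397 to 1.96), and 20% and 17.5% had Gzmd to Gzmg, a ratio of 1.14 (0.399 to 2.66). Gzmb was in 60% of AptCD4-LNT and 65.6% of Untreated cells (0.914, 0.530 to 1.49), and cycling cells were 26.7% and 33.0% (0.809, 0.339 to 1.66), beside 19.4% and 24.8% of keratin-high cells, which divide too. Ccl5 was in 50% and 31.9% (1.57, 0.842 to 2.72), Prf1 in 13.3% and 28.1% (0.475, 0.126 to 1.26), and Il7r in 20% and 28.1% (0.713, 0.254 to 1.62). Havcr2 was in 6.67% (2 cells) and 16.8% (0.396, 0.0466 to 1.51), Pdcd1 in 20% and 25.3% (0.792, 0.281 to 1.81), and Tcf7 in 3.33% (1 cell) and 4.56% (0.731, 0.0172 to 4.87). With 30 AptCD4-LNT cells, differences smaller than about these intervals were not detectable. At full depth Tcf7 was in 16.7% of AptCD4-LNT and 6.89% of Untreated cells, Havcr2 in 30% and 30.5%, Gzmd to Gzmg in 26.7% and 18.9% and cycling in 46.7% and 39.2%. Il7r was in 63.3% and 50.6% and Gzmb in 73.3% and 70.4%. The order of Tcf7, cycling, Il7r and Gzmb thus turned with depth and that of Havcr2 vanished, and no order is read for these.

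**Figure D4:**
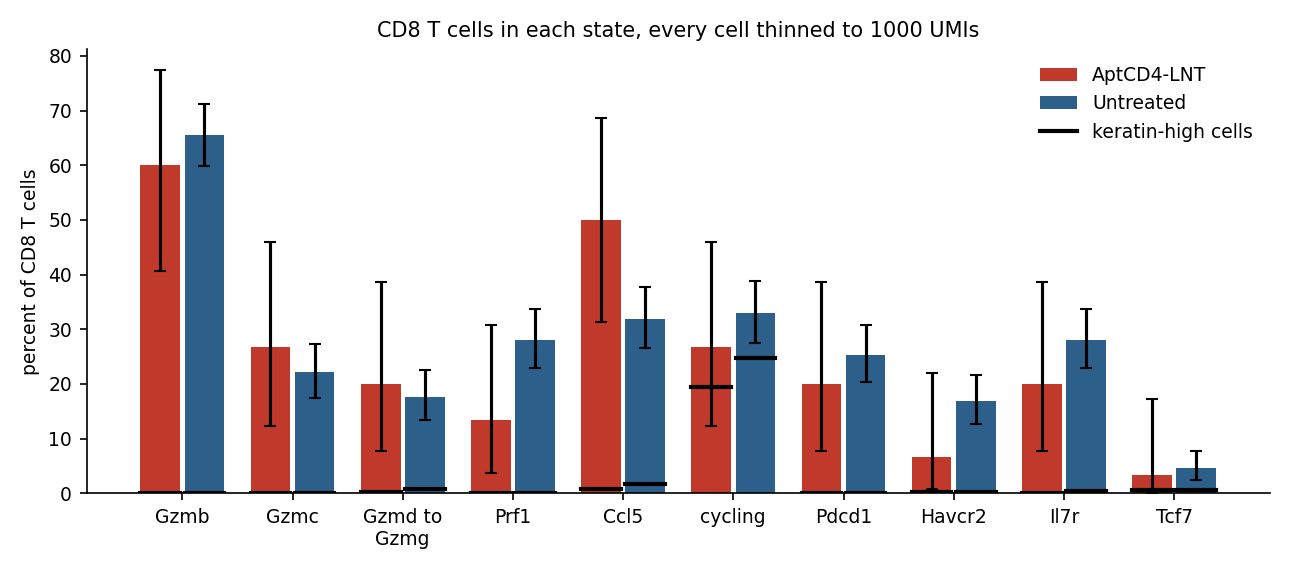
Percent of CD8 T cells with each gene or state after thinning to 1000 UMIs per cell, AptCD4-LNT red and Untreated blue, with exact 95% binomial intervals and black lines for keratin-high cells of the same library. Ccl5 is at 50% in AptCD4-LNT and 31.9% in Untreated cells and Prf1 at 13.3% and 28.1%, and every pair of intervals overlaps.

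Between the libraries 24 of 1654 genes (1.45%) with a mean of 100 CPM or more were at least 2-fold higher in AptCD4-LNT CD8 T cells and 21 (1.27%) at least 2-fold lower, with a median log2 ratio of 0.02. The higher genes were led by Rnf19b, a ubiquitin ligase known from killer lymphocytes, at 213 CPM in AptCD4-LNT and 59.2 CPM in Untreated cells, a log2 ratio of 1.85 (1.21 to 2.46). Ly6c2, a surface protein of memory CD8 T cells, was at 307 and 92.1 CPM (1.74), and Pglyrp1, a granule protein that binds bacterial peptidoglycan, at 289 and 117 CPM (1.30). F2r, the thrombin receptor PAR1, was at 171 and 68.8 CPM (1.31), Cbl, a ubiquitin ligase that damps T cell receptor signals, at 154 and 56.2 CPM (1.45), and Rasa2, a Ras inhibitor, at 154 and 65.0 CPM (1.24). Aak1, Cnot6, Evl and Hmgcs1 were also among the 12 with the largest ratios, at 1.24 to 1.53, as was the ribosomal RNA gene Rn18s-rs5, at 3519.9 and 1562 CPM (1.17).

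The lower genes were led by Rgs16 and Ccl4, followed by genes of macrophages and dendritic cells. Rgs16, an inhibitor of chemokine receptor signals, was at 53.2 CPM on 9 UMIs in AptCD4-LNT and 414 CPM on 427 UMIs in Untreated cells, a log2 ratio of -2.96 (-4.10 to -2.02), and Ccl4 at 53.2 and 341 CPM (-2.68, -3.82 to -1.74). Ccl3, a chemokine related to Ccl4, and Serpinb9b, a granzyme inhibitor, each had 0 AptCD4-LNT and 63 Untreated UMIs, at least 3.45-fold lower with a floor of 3 counts over the AptCD4-LNT cells. Both were named after their values were seen. Xcl1 was at 59.1 and 156 CPM (-1.40), Prf1 at 224 and 568 CPM (-1.34, -1.85 to -0.87), and Rbpj, the nuclear partner of Notch, at 106 and 249 CPM (-1.23). Lyz2, Cd14 and H2-Ea, at 129.9, 47.2 and 100.4 CPM in AptCD4-LNT and 640.0, 172 and 308 CPM in Untreated cells, are genes of macrophages and dendritic cells, as Cd9, Fn1 and Capg can be. Markers of these cells were lower in AptCD4-LNT members as a whole, with 874 and 1672 CPM for the 8 macrophage markers, 596 and 1110.3 CPM for the 8 dendritic cell markers and 419 and 611 CPM for the 6 neutrophil markers. In AptCD4-LNT the richest cell for each list held 128 of 148 macrophage, 78 of 101 dendritic cell and 45 of 71 neutrophil marker UMIs. Lists of other types went both ways, with the 6 fibroblast or pericyte markers at 301 and 170 CPM. The 6 epithelial or tumour cell markers were at 53.2 and 103 CPM, and both of these lists hold genes of the rule. Of the macrophage markers none was at 0 in either library, while Clec9a and Flt3 were at 0 in both. More than 2 macrophage UMIs were found in 2 of 30 AptCD4-LNT and 30 of 334 Untreated cells. With those cells left out 12 genes in place of 21 were at least 2-fold lower.

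The granzymes differed between the libraries gene by gene, and for several of them a single AptCD4-LNT cell, not the same one for each gene, decided the value. Gzmc was at 4837 CPM on 819 UMIs in AptCD4-LNT and at 1499 CPM on 1546 UMIs in Untreated cells, a log2 ratio of 1.69 (1.57 to 1.81), and without the AptCD4-LNT cell richest in it still 1.34. Gzmb was at 6219 and 4793 CPM (0.38), but -0.46 without the cell that held 49.5% of it. Gzma was at 2197 and 1545 CPM (0.51, and 0.10 without its richest cell) and Gzmd at 845 and 694 CPM (0.28, and -1.69 without). Gzme was at 266 and 386 CPM (-0.54), Gzmf at 649.6 and 1253 CPM (-0.95) and Gzmg at 348 and 777 CPM (-1.16). Without the richest AptCD4-LNT cell these log2 ratios were -1.40 for Gzme, -1.61 for Gzmf and -3.93 for Gzmg, and without the richest Untreated cell -0.35, -0.77 and -0.52. As for their sum, no direction is read from them. Gzmk was at 201 and 228 CPM (-0.18, -0.75 to 0.34). Leaving out the richest AptCD4-LNT cell can hardly do other than lower a ratio, and was chosen after the values were seen. Over the 9 counted members of the granzyme and perforin list, 1 was at least 1.5-fold higher and 3 lower, where 13.1% and 8.46% of 3156 genes of 50 CPM or more were. The median of -0.18 turned to 0.42 without cells of more than 2 macrophage UMIs and to 0.12 after thinning, so the list has no stable direction. Nkg7, a granule membrane protein of killer cells, was level at 1394 and 1383 CPM.

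Inhibitory and exhaustion genes were lower in AptCD4-LNT CD8 T cells for several of its members. Of 10 counted genes 5 were at least 1.5-fold lower and 1 higher, with a median log2 ratio of -0.59, beside 0.05 over all 3156 genes. Pdcd1 was at 201 CPM in AptCD4-LNT and 315 CPM in Untreated cells (-0.65, -1.21 to -0.14), Havcr2 at 82.7 and 162 CPM (-0.97) and Lag3, which binds MHC class II, at 23.6 and 83.4 CPM (-1.82, -3.73 to -0.41). Entpd1, the ectonucleotidase CD39, was at 53.2 and 143 CPM (-1.42), and Ctla4, a brake on CD28 signals, at 236 and 343 CPM (-0.54). Nr4a3, induced through the T cell receptor, was the higher one, at 94.5 and 51.4 CPM (0.88, -0.03 to 1.71). The costimulatory receptor Tnfrsf9 was also lower, at 319 and 601 CPM (-0.91, -1.34 to -0.51), though the costimulatory list as a whole had a median of 0.08. The inhibitory median was 0.10 when cells above the limits on keratin, collagen and S100 genes were let in, and -0.92 when each cell weighed the same.

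Naive, memory and stem-like genes went both ways. Bcl2 was at 673 CPM in 26 of 30 AptCD4-LNT cells and at 325 CPM in 171 of 334 Untreated cells, a log2 ratio of 1.05 (0.73 to 1.36), and its richest cell held 9.65% of the AptCD4-LNT UMIs. Lef1 was at 106 and 51.4 CPM (1.05) and Ltb, a lymphotoxin chain, at 596 and 404 CPM (0.56). Il7r was lower, at 195 and 317 CPM (-0.70, -1.27 to -0.18), as were Xcl1 and, at 129.9 and 199 CPM (-0.61, -1.32 to 0.02), Klf2. Interferon response genes had 3 of 10 higher and 0 lower (median 0.50). Ly6a was at 272 and 157 CPM (0.79) and Ifi27l2a at 254 and 169 CPM (0.59), while Irf1 was at 88.6 and 125 CPM (-0.50, -1.38 to 0.28). The interferon median was -0.12 with the cells above the keratin, collagen and S100 limits.

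Other groups lay near the middle of all genes. Cycling core genes had a median of 0.10 (1 of 15 higher, 0 lower), with Mki67 at 319 CPM in AptCD4-LNT and 233 CPM in Untreated cells, and DNA replication genes 0.17 (0 of 17 higher, 1 lower). Glycolysis and hypoxia genes had a median of -0.05 (0 of 13 higher, 1 lower), with Gapdh at 1547 and 1515 CPM, and MHC class I genes 0.15 (0 of 10 in either direction), with B2m at 3360.4 and 2488 CPM. Homing and residency genes had a median of 0.09 (2 of 14 higher, 1 lower), with the gut homing integrin chain Itgb7 at 100.4 and 38.8 CPM and the memory receptor Cd44 at 118 and 223 CPM. Transcription factors of effector states had a median of 0.07 (0 of 9 in either direction), with Runx3, which sets the CD8 lineage, at 555 and 453 CPM. Killing and granule genes outside the granzymes had -0.23 (1 of 10 higher, 2 lower) and natural killer type receptors -0.23 (0 of 8 higher, 2 lower), with Klrd1, the CD94 chain, at 402 and 635 CPM. Klrg1, a receptor of short-lived effector cells, is below the level set for counting, at 88.6 CPM on 15 UMIs in 4 AptCD4-LNT cells and 10.7 CPM on 11 UMIs in 10 Untreated cells, and 1 cell held 60% of its AptCD4-LNT UMIs. Immediate early genes, which tissue dissociation can raise, had a median of -0.27 (0 of 12 higher, 2 lower), and 0.61 after thinning. Only 3 of 14 cytokine and chemokine genes were counted, Ccl4, Ccl5 and Ifng, the last at 129.9 and 121 CPM (0.10, -0.62 to 0.76).

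**Figure D5:**
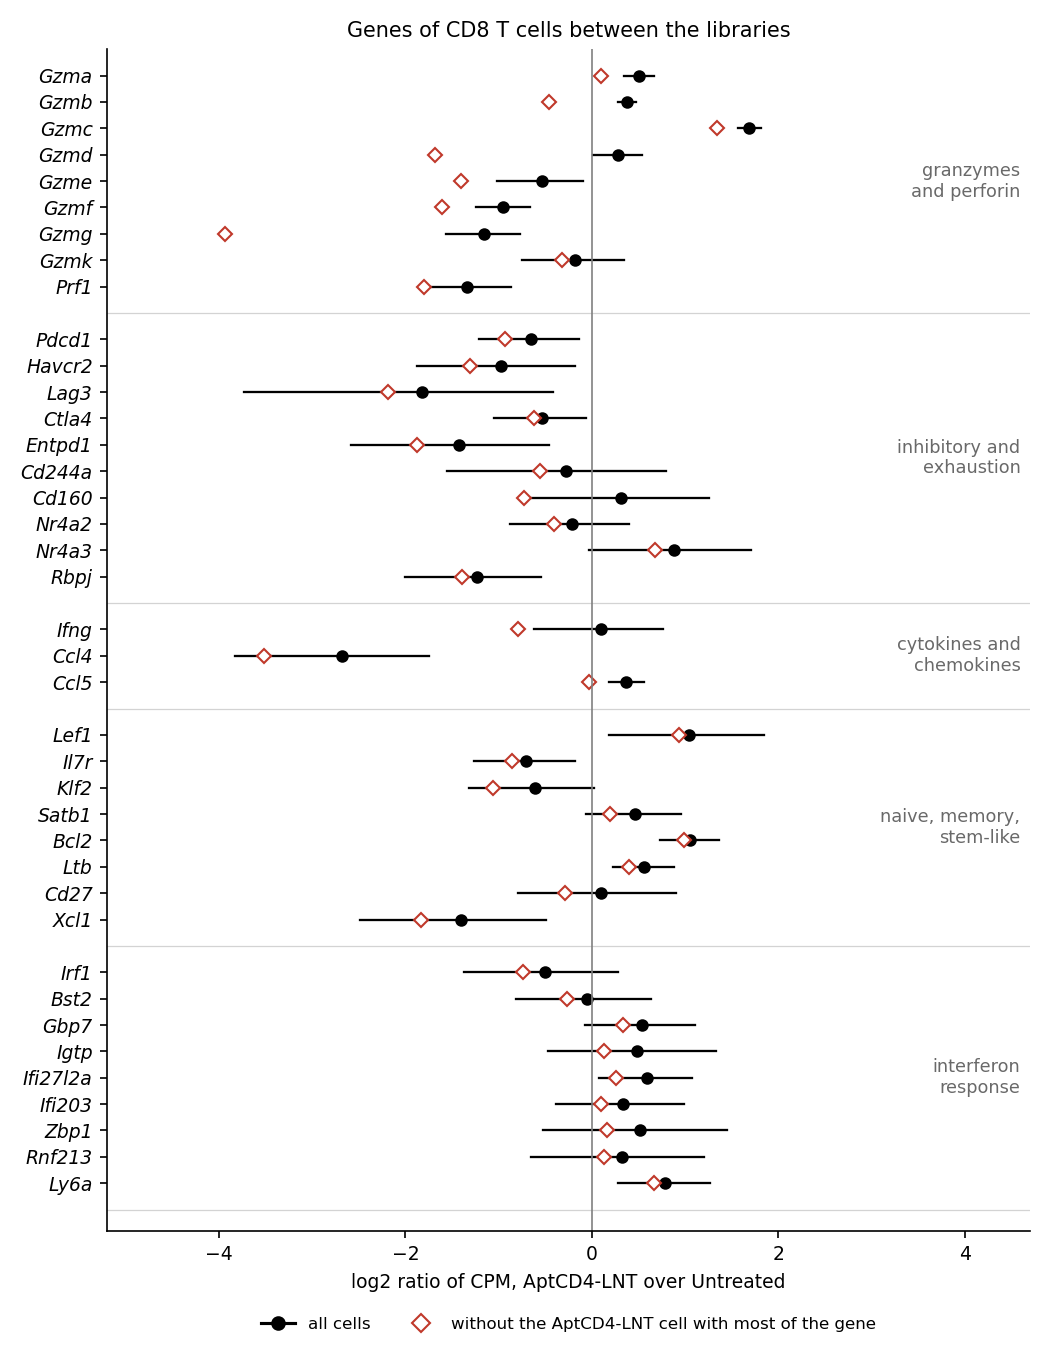
Log2 ratios of CPM, AptCD4-LNT over Untreated CD8 T cells, for members of 5 lists (filled points with 95% counting intervals), and without the AptCD4-LNT cell that holds most of the gene (open red diamonds). The inhibitory genes Pdcd1 (-0.65), Havcr2 (-0.97) and Lag3 (-1.82) lie left of 0 with all cells. Their diamonds could hardly lie elsewhere, since leaving out that cell can hardly do other than lower a ratio. Gzmb (0.38, and -0.46 without 1 cell) and Gzmd (0.28, and -1.69) cross 0.

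Genes that chose the cells were described only. Cd8a was at 596 CPM in AptCD4-LNT and 615 CPM in Untreated members, Cd8b1 at 561 and 586 CPM and Cd3g at 2250.1 and 2235 CPM. The list of T cell receptor and CD3 genes had a median log2 ratio of 0.22 (1 of 9 higher, 1 lower). The constant genes of the receptor differed, with Trac at 354 and 633 CPM, Trbc2 at 673 and 1196 CPM, and Trbc1 at 791 and 429 CPM. Of members with 1 of the 2 beta chain genes alone, 1 of 10 AptCD4-LNT and 22 of 185 (11.9%) Untreated cells had Trbc1.

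The other CD3-positive cells had less of the Gzmc to Gzmg group. Gzmd to Gzmg were at 2108 CPM in AptCD4-LNT CD8 T cells, 0 in the 9 CD4 T cells and 238 CPM in the 60 cells with neither coreceptor, and at 3109.8, 0 and 231 CPM in the Untreated library. Gzmc was at 4837, 0 and 1731 CPM in the AptCD4-LNT library and at 1499, 0 and 189.9 CPM in the Untreated library, in the same order of cells. Ccl5 was at 1736, 0 and 1098 CPM in AptCD4-LNT and at 1341, 457 and 3549 CPM in Untreated cells, so it was not confined to CD8 T cells. Tnfrsf4, the costimulatory receptor OX40 of CD4 T cells, was at 5.91, 455 and 157 CPM in AptCD4-LNT and at 53.3, 809 and 315 CPM in Untreated cells, the reverse order.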

How the data were processed

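Droplet single-cell RNA libraries of 4T1 tumours were analysed, 1 for AptCD4-LNT and 1 for Untreated, each of 3 mixed tumours. The deposited files hold UMI counts for 55357 genes per barcode, made with Cell Ranger 7.2.0 on GRCm39 per the submitters' processing notes, for 8931 AptCD4-LNT and 20040 Untreated barcodes. Barcodes were kept if they had 200 genes or more and a mitochondrial share of 20% or less. Scrublet, run per library in scanpy 1.11.5, called 0 AptCD4-LNT and 21 Untreated CD8 T cells doublets, which were kept in the main values and left out in an alternative.

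UMIs were summed over cells and divided by the total to give CPM. Ratios have exact conditional binomial 95% intervals, and shares exact Clopper-Pearson intervals. Both cover counting error only, and no p-value is given because there is 1 library per treatment. A count of 0 was entered as 3 in list medians. Shares were compared after thinning each cell to 1000 UMIs. Genes named between the libraries were the 12 largest ratios in each direction among genes of 100 CPM or more whose interval leaves out 0. Genes of the rule, mitochondrial and ribosomal protein genes and receptor variable genes were left out. Members of the 16 lists were added, and up to 8 genes in each direction by state. The cells, states and lists were chosen with earlier results of these data known, and the Ccl5, Il7r, Prf1 and Gzmc to Gzmg states after seeing these values. Promoter sequences are from RefSeq on GRCm38.p6, transcript sequences are from GENCODE, and no coordinate was converted. Python 3.11.15, numpy 2.4.6, scipy 1.17.1 and pandas 2.3.3 were used, and the steps were tested on simulated counts. Some members of the lists are counted in the medians but not reported by name here.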

Additional observations from a re-analysis of the deposited data

How the results depend on the processing

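The share of CD8 T cells among kept cells stayed lower in AptCD4-LNT, with log2 ratios of -2.54 to -1.78 over 10 alternatives. Their share of CD3-positive cells (-1.14) was -2.05 without the limits on keratin, collagen and S100 genes. Without these limits the Gzmd to Gzmg level (-0.56) was 0.048, and the list medians were 0.10 for inhibitory genes, 0.33 for granzymes, 0.012 for other killing genes, 0.24 for natural killer type receptors and -0.12 for interferon response genes. The Gzmd to Gzmg level was -0.76 with at least 2 CD8 UMIs, -0.18 with at most 2 macrophage UMIs, -0.25 with equal weight per cell and -0.25 after thinning. Without the richest AptCD4-LNT cell it was -1.48, and without the richest Untreated cell -0.35. Genes at least 2-fold higher in AptCD4-LNT (24) were 65 without the limits, 63 with equal weight, 234 after thinning, 87 at 50 CPM or more, 4 at 200 CPM or more and 6545 with no filter. Genes at least 2-fold lower (21) were 12 with at most 2 macrophage UMIs, 85 without the limits, 32 with equal weight, 131 after thinning, 69 at 50 CPM or more, 10 at 200 CPM or more and 759 with no filter. With at most 2 macrophage UMIs, medians were -0.0061 for T cell receptor and CD3 genes, 0.42 for granzymes and 0.0031 for natural killer type receptors. With equal weight they were -0.043 for naive and memory genes, -0.92 for inhibitory genes and -0.11 for granzymes, and at 100 CPM or more -0.075 for naive and memory genes. After thinning they were -0.34 for inhibitory genes, 0.12 for granzymes and 0.61 for immediate early genes. Granzymes were at -0.025 with at least 2 CD8 UMIs, -0.27 without Scrublet calls and -0.060 without cells of innate genes, and immediate early genes at 0.016 without Scrublet calls. The ratio of Tcf7 cell shares (-0.45, on 1 AptCD4-LNT cell) was 2.64 at 1500 UMIs and that of Havcr2 cells (-1.34) 1.25 at 500 UMIs, with ranges of 0.34 to 2.64 and -0.94 to 1.25 over the alternatives. Gzmb in Untreated Il7r cells (-0.22) was 0.40 without thinning. The alternatives without limits, on innate genes and on single cells were chosen after seeing the data, and where values moved the cause was not tested. No paired analysis was possible because each treatment has 1 library. The 30 AptCD4-LNT cells and single rich cells limit every value.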
